A study of Mus musculus with 2 samples.

Results

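The nuclei described here were glutamatergic nuclei of the dissected thalamus with RNA of C6, Tspear or Tll1, alone or together, and they numbered 2603 of the 38150 nuclei kept in the series. They were chosen by measured values: a nucleus had at least 1 UMI (unique molecular identifier, the count of 1 captured RNA molecule) of the vesicular glutamate transporters Slc17a6 and Slc17a7, no UMI of Gad1 or Gad2, and at least 3 UMIs summed over C6, Tspear and Tll1. This sum also had to be larger than the sum of Adgrf5, Abhd12b and Zfp385c, genes of another set of relay neurons. The sham library held 1296 of these C6/Tspear/Tll1 neurons and the injury library 1307. They made up 7.92% (95% Clopper-Pearson interval 7.51 to 8.34) of the 16373 kept sham nuclei and 6.00% (5.69 to 6.33) of the 21777 kept injury nuclei. Among glutamatergic nuclei their share was 14.9% (14.2 to 15.7) in the sham library and 13.7% (13.0 to 14.4) after injury. Glutamatergic nuclei themselves were 53.0% of the sham and 43.9% of the injury library, so the first pair of shares moved with the whole glutamatergic class. All intervals cover counting error only.

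Thalamic relay neurons receive sensory, motor or subcortical input and send glutamatergic axons to the cortex, and the cortex sends axons back to them. They switch between tonic firing and bursts carried by T-type calcium channels, and their identity is kept by transcription factors such as Tcf7l2 and Lef1. The genes that define the neurons here have other known roles: C6 is a component of the complement membrane attack complex, Tspear is a secreted protein with epilepsy-associated repeats, and Tll1 is a tolloid-like metalloprotease that cleaves procollagen and the BMP inhibitor chordin. Necab1, the fourth marker given for these cells, is a neuronal EF-hand calcium-binding protein and was not used to choose them.

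In the GRCm38 genome, C6 lies on the plus strand at chr15:4727175-4814967, Tspear on the plus strand at chr10:77686569-77887021, Tll1 on the minus strand at chr8:64014931-64206271 and Necab1 on the minus strand at chr4:14952245-15149794. These spans are whole annotated genes, with their exons and introns. UMIs were given per gene, so the part of the gene a molecule came from is not known.

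The nuclei came from the ipsilateral thalamus of female C57BL/6J mice, which were operated on one side at 3 months of age and killed 21 days later. Injury mice had undergone cortical ablation injury, in which primary sensory and motor cortex was removed surgically, and sham mice a sham operation. Each library pooled nuclei from 4 mice, which were stained with propidium iodide and sorted, so each group was 1 library and no group had a replicate. No test between the groups could therefore be made, and mouse, dissection, sorting and library cannot be told apart from the operation. Levels are given as UMIs summed over a population's nuclei per 1000000 UMIs of that population (CPM), in the order sham then injury. A log2 ratio is of 2 such levels, with its exact 95% interval in parentheses. The neurons held 16814581 UMIs in the sham library and 18874896 after injury, with medians of 11945 and 13011 UMIs per nucleus. The libraries shared 101 cell barcodes, none of which was a C6/Tspear/Tll1 neuron in both.

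Detection of the rule genes split the neurons. Nuclei with 3 or more UMIs of C6 and Tspear, called C6/Tspear-rich here, were 627 of the sham (48.4%) and 645 of the injury neurons (49.3%). Nuclei with 1 or 2 such UMIs, called intermediate, numbered 248 and 249. Nuclei with Tll1 alone, and no UMI of C6 or Tspear, numbered 421 (32.5%) and 413 (31.6%). This division was made after the values were seen. The Tll1-alone nuclei were shallower, with medians of 10463 and 11417 UMIs against 13295 and 14139 in the C6/Tspear-rich nuclei. All 3 rule genes were detected together in 150 sham and 161 injury nuclei.

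By the rule, C6 reached 186 and 149 CPM over all the neurons and 341 and 278 CPM in the C6/Tspear-rich nuclei, against 39.6 and 39.3 CPM in the neurons chosen in the same way by Adgrf5, Abhd12b and Zfp385c (Adgrf5 relay neurons, 1198 and 1209 nuclei). Tspear was at 103 and 118 CPM over all the neurons and 76.8 and 86.4 CPM in Adgrf5 relay neurons, so Tspear RNA was shared by both sets. Tll1 was at 232 and 212 CPM over all the neurons and 15.7 and 15.7 CPM in Adgrf5 relay neurons. These levels follow from the rule and are given as a description.

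Necab1 followed the label over the sets as a whole, and not at the margin of the rule. Its level was 526 and 484 CPM in the neurons, 151 and 164 CPM in Adgrf5 relay neurons and 256 and 227 CPM in the other glutamatergic nuclei (6183 and 7038). The log2 ratio of Necab1 over Adgrf5 relay neurons was 1.80 (1.74 to 1.86) in the sham library and 1.56 (1.502 to 1.62) after injury. With each nucleus thinned to 3000 UMIs, 66.9% and 62.0% of the neurons held a Necab1 UMI, against 26.0% and 27.1% of Adgrf5 relay neurons and 9.30% and 13.1% of oligodendrocyte nuclei, a cell type that should lack it. Before thinning these shares were 80.9% and 81.4%, 42.2% and 44.1% and 4.98% and 5.80%, at a median of 1939.5 and 2064.5 UMIs per oligodendrocyte nucleus. Thinning left out 6 and 7 of the neurons and 496 and 1140 of the 582 and 1430 oligodendrocyte nuclei. The share in the neurons was above that in oligodendrocyte nuclei at both depths. Nuclei at the margin had a sum of C6, Tspear and Tll1 that was 1 below, equal to or 1 above that of Adgrf5, Abhd12b and Zfp385c. In that order Necab1 was at 299, 441 and 428 CPM in the sham library and 377, 285 and 346 CPM after injury.

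Prkcd and Lef1, 2 markers of the relay-neuron label, were higher in the C6/Tspear-rich than in the Tll1-alone nuclei. Prkcd, a protein kinase C isoform of relay neurons, was at 347 and 319 CPM in C6/Tspear-rich nuclei, 113 and 126 CPM in intermediate nuclei and 45.7 and 41.4 CPM in Tll1-alone nuclei, against 441 and 444 CPM in Adgrf5 relay neurons. Lef1, a Wnt-responsive transcription factor, was at 754 and 672 CPM in C6/Tspear-rich and 306 and 290.1 CPM in Tll1-alone nuclei. Tcf7l2, the transcription factor shared by thalamus and habenula, differed less, at 776 and 772 CPM and 625 and 591 CPM. Necab1 was high in each division, at 500.0 and 476 CPM in C6/Tspear-rich, 669.7 and 586 CPM in intermediate and 482 and 426 CPM in Tll1-alone nuclei. Of 16 thalamic nucleus markers measured against Adgrf5 relay neurons, 2 were higher past 2-fold in both libraries (Calb2 and Htr2c) and 7 lower, beside 2.54% and 0.63% of all genes. The lower ones were Adgrf5, Abhd12b and Zfp385c, which the rule used, and Prkcd, Tnnt1, Scn4b and Slc17a7. Scn4b had few UMIs in the neurons and counted as measured through its UMIs in Adgrf5 relay neurons. Calb2 had few UMIs in Adgrf5 relay neurons and counted as measured through its UMIs in the neurons, where it was high. In the C6/Tspear-rich nuclei Calb2 and Htr2c were higher and, beside the 3 rule genes, Scn4b was lower, against 0.539% and 0.469% of all genes.

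Markers of the habenula, the epithalamic nucleus beside the thalamus, lay mainly in the Tll1-alone nuclei. Summed over 5 markers, none of them at 0, they reached 697 and 1047 CPM there, 63.5 and 169 CPM in C6/Tspear-rich nuclei and 80.2 and 99.4 CPM in Adgrf5 relay neurons. Most of this sum was Nwd2, at 673 and 1010.4 CPM in Tll1-alone nuclei and 702 and 918 CPM in the other glutamatergic nuclei. Pou4f1, a habenular transcription factor, was at 10.9 and 15.3 CPM in Tll1-alone nuclei and 0.339 and 1.83 CPM in C6/Tspear-rich nuclei. Chat, the acetylcholine-synthesizing enzyme, was at 6.76 and 14.1 CPM against 0.339 and 1.83 CPM. Nuclei with at least 3 UMIs of these markers were 25.9% (21.8 to 30.4) and 36.1% (31.4 to 40.9) of the Tll1-alone nuclei, 3.83% and 7.75% of the C6/Tspear-rich nuclei and 4.76% and 6.37% of Adgrf5 relay neurons. They were 23.1% and 27.4% of the other glutamatergic nuclei. Over all the neurons 96.0% and 97.3% of the Nwd2 UMIs lay in such nuclei, and Nwd2 is itself one of the markers that pick them. The values go against a relay-neuron label for these marker-bearing nuclei. Prkcd was also low over the Tll1-alone nuclei as a whole, so the label is not shown for the rest of them, which were not examined separately.

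Levels along the rule are given as a description. Each group kept only nuclei whose sum of C6, Tspear and Tll1 exceeded that of Adgrf5, Abhd12b and Zfp385c, so nuclei with few UMIs of the first could hold few of the second, and the course of relay genes such as Prkcd along it is in part fixed by the rule. In nuclei just outside it, with 2 UMIs of the rule genes, Necab1 was at 378 and 425 CPM and Prkcd at 83.5 and 85.2 CPM. In those just inside, with 3 to 5 UMIs, Necab1 was at 524 and 461 CPM and Prkcd at 148 and 143 CPM, and with 11 to 20 UMIs Prkcd was at 303 and 296 CPM. Nwd2 went the other way, from 677 and 913 CPM with 2 UMIs to 153 and 235 CPM with 11 to 20. With 21 or more UMIs, in 18 and 21 nuclei, Nwd2 was at 39.5 and 364 CPM and Prkcd at 285 and 349 CPM, so the order did not hold in the last group. The number of rule-gene UMIs rises with the depth of a nucleus: the median was 9885 and 9918.5 UMIs per nucleus with 2 of them and 15765 and 17426 with 11 to 20.

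**Figure D1:**
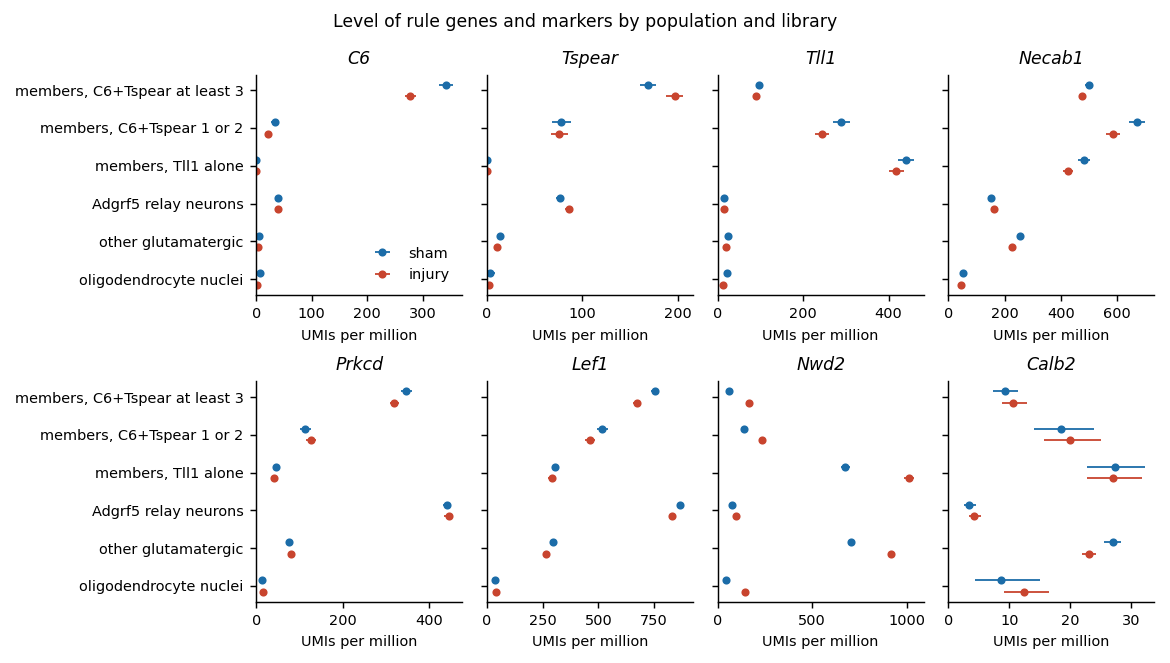
Level of the 3 rule genes and 5 markers in 6 populations, in CPM, with sham in blue, injury in red and bars for the exact 95% Poisson interval. Prkcd and Lef1 are high in the C6/Tspear-rich nuclei and the Adgrf5 relay neurons, and Nwd2 and Calb2 in the Tll1-alone and other glutamatergic nuclei.

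**Figure D2:**
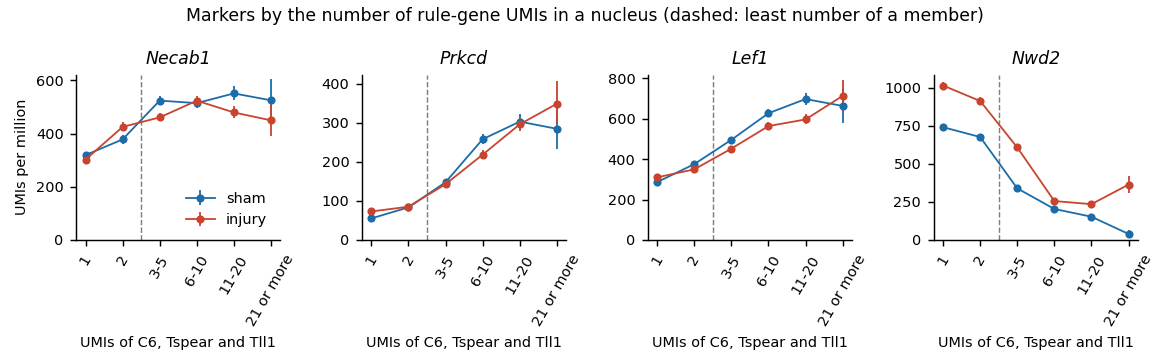
Necab1, Prkcd, Lef1 and Nwd2 (CPM, vertical axis) in glutamatergic nuclei with more UMIs of C6, Tspear and Tll1 than of Adgrf5, Abhd12b and Zfp385c, grouped by their UMIs of the first 3 genes (horizontal axis), with sham in blue, injury in red and bars for the exact 95% Poisson interval. From 2 to 20 UMIs of the rule genes Prkcd and Lef1 go up and Nwd2 goes down, and in the last group, of 18 sham and 21 injury nuclei, injury Nwd2 is at 364 CPM and sham Prkcd and Lef1 are at 285 and 663 CPM.

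The neurons were set beside Adgrf5 relay neurons. Of 12383 genes with at least 100 UMIs over both sets in each library, 314 (2.54%) were higher past 2-fold in both libraries and 78 (0.63%) were lower. In the C6/Tspear-rich nuclei alone the counts were 62 (0.539%) and 54 (0.469%) of 11505. Against the other glutamatergic nuclei 75 (0.505%) of 14843 genes were higher and 417 (2.81%) lower. The 10 genes ranked highest were Galr1, Tacr3, Ntsr1, Sema3d, Fbln1, Ldb2, Itga8, Ror1, Thsd7b and Cntnap3. The thresholds mark size and are not a test, and genes the rule used were left out of the ranking. The minimum was over both sets together, so a gene could count as measured through the set in which it was high.

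Galr1, a galanin receptor, was at 7.08 and 6.04 CPM in the neurons and 0.579 and 0.484 CPM in Adgrf5 relay neurons, with 13.1 and 10.7 CPM in Tll1-alone and 2.37 and 3.15 CPM in C6/Tspear-rich nuclei. Tacr3, the neurokinin B receptor, was at 6.84 and 5.93 CPM against 0.753 and 0.645 CPM. Ntsr1, a neurotensin receptor, was at 5.59 and 5.03 CPM against 0.637 and 0.537 CPM. In C6/Tspear-rich nuclei Tacr3 was at 3.96 and 2.85 CPM and Ntsr1 at 3.73 and 2.64 CPM. Galr1, Tacr3 and Ntsr1 had few UMIs in Adgrf5 relay neurons and reached the minimum through the neurons ranked, and all 3 were higher in each division of the neurons than in Adgrf5 relay neurons, and all 3 were also higher in the other glutamatergic nuclei.

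Larger in level were Ldb2, Thsd7b and Cntnap3. Ldb2, a cofactor of LIM-homeodomain transcription factors, was at 286 and 289 CPM against 49.1 and 49.0 CPM, a log2 ratio of 2.54 (2.44 to 2.65) in the sham library and 2.56 (2.46 to 2.66) after injury. In the C6/Tspear-rich nuclei its ratio remained 2.08 (1.96 to 2.20) in the sham library and 2.10 (1.99 to 2.21) after injury. Thsd7b, a thrombospondin-repeat membrane protein, was at 692 and 735 CPM against 124 and 132 CPM. Cntnap3, a contactin-associated cell adhesion protein, was at 72.1 and 77.5 CPM against 13.3 and 10.8 CPM and at 46.4 and 55.6 CPM in C6/Tspear-rich nuclei. These 3 genes were higher in both divisions than in Adgrf5 relay neurons.

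Sema3d, Itga8 and Ror1 differed more between the divisions. Sema3d, a secreted axon guidance cue, was at 37.5 and 51.6 CPM in Tll1-alone, 2.26 and 2.75 CPM in C6/Tspear-rich nuclei and 1.04 and 2.42 CPM in Adgrf5 relay neurons. For Itga8, an integrin subunit, the levels were 43.2 and 41.8, 4.07 and 7.32 and 3.13 and 2.74 CPM. For Ror1, a Wnt-binding receptor tyrosine kinase, they were 138 and 170.0, 11.9 and 15.5 and 10.5 and 11.7 CPM. Fbln1, an extracellular matrix protein, was at 21.7 and 16.8, 5.54 and 5.69 and 1.85 and 0.967 CPM. Sema3d, Itga8 and Fbln1 also had few UMIs in Adgrf5 relay neurons and reached the minimum through the neurons ranked.

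The 10 genes lowest against Adgrf5 relay neurons were below them in the C6/Tspear-rich and in the Tll1-alone nuclei. Fzd6, a Wnt receptor, was at 8.68 and 7.74 CPM against 30.1 and 39.0 CPM in Adgrf5 relay neurons, and Notum, a secreted enzyme that inactivates Wnt proteins, was at 4.22 and 2.60 CPM against 16.3 and 10.2 CPM. Tspan11, a tetraspanin, was at 1.90 and 2.07 CPM against 16.4 and 26.9 CPM, a log2 ratio of -3.11 (-3.68 to -2.58) in the sham library and -3.70 (-4.21 to -3.23) after injury. Scn4b, a sodium channel beta subunit, was at 1.78 and 1.27 CPM against 7.01 and 5.75 CPM. The other 6 of the 10 lowest genes were Sycp2l, Pstpip1, Ppp1r3a, Adgrg5, Trp73 and Slc16a12. Sycp2l had the largest difference of them, 0.535 and 0.636 CPM against 6.66 and 12.7 CPM. Sycp2l, Tspan11, Notum and Scn4b had few UMIs in the neurons. They reached the minimum through Adgrf5 relay neurons, the set in which they were high.

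**Figure D3:**
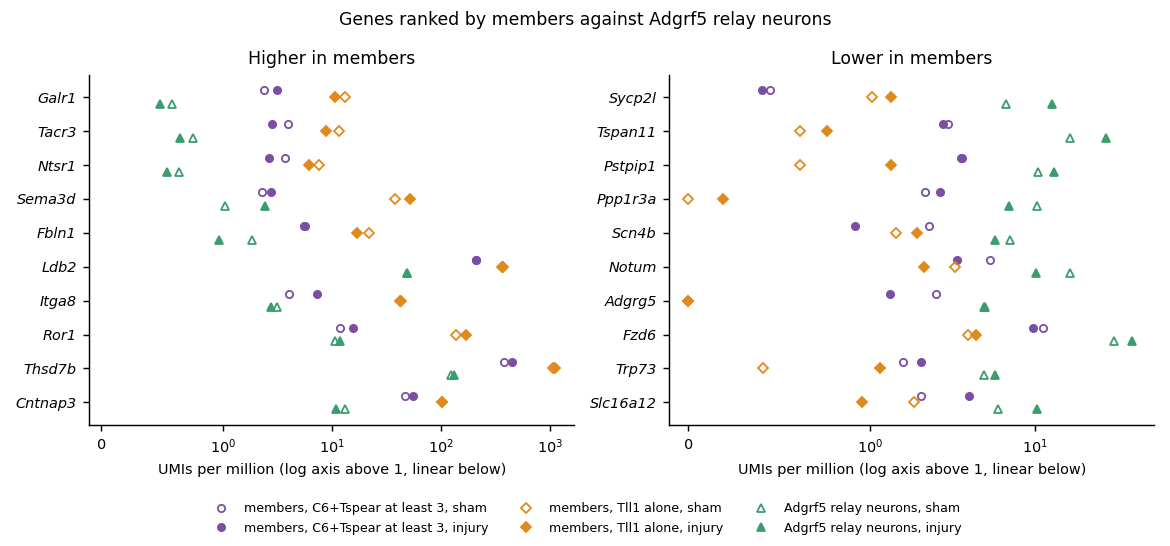
Level (CPM, log axis above 1 and linear below) of the 10 genes highest and the 10 lowest in C6/Tspear/Tll1 neurons over Adgrf5 relay neurons, with open symbols for sham and filled symbols for injury. Among the highest genes the Tll1-alone nuclei lie at the right, and among the lowest genes both divisions lie left of the Adgrf5 relay neurons.

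Of 18 neuromodulator receptors measured, 7 were higher past 2-fold in both libraries than in Adgrf5 relay neurons and 0 lower, beside 2.54% and 0.63% of all genes, with list medians of 0.74 and 0.76 on the log2 scale against 0.04 and 0.07 for all genes. Against the other glutamatergic nuclei 1 of 20 was higher and 1 lower, beside 0.505% and 2.81% of all genes, with medians of -0.21 and -0.09, so the high side was seen against Adgrf5 relay neurons. Htr2c, a serotonin receptor, was at 463 and 431 CPM against 108 and 98.4 CPM, and Oprm1, the mu opioid receptor, at 219 and 235 CPM against 89.3 and 107 CPM. Hrh1, a histamine receptor, was at 17.4 and 22.1 CPM against 4.00 and 4.51 CPM. Hrh1 and Adra1a, another of the 7, had few UMIs in Adgrf5 relay neurons and reached the minimum through the neurons. The count of 7 is therefore a description and not support for a trait of the list. In the C6/Tspear-rich nuclei Htr2c, Oprm1 and Hrh1 were the ones of 14 measured that stayed past 2-fold, beside 0.539% of all genes. Htr4, Cnr1, Oprk1 and Adra1a, the other 4, were not past 2-fold in both libraries there or had too few UMIs, and Htr4 had 77.2 and 103 CPM in Tll1-alone and 6.78 and 11.8 CPM in C6/Tspear-rich nuclei.

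GABA receptor subunits showed 4 of 14 higher and none lower than in Adgrf5 relay neurons, beside 2.54% and 0.63% of all genes, and 0 of 14 higher or lower than in the other glutamatergic nuclei. They were Gabra2, Gabra3, Gabra5 and Gabrg1, and Gabrg1, a gamma subunit, was at 29.2 and 28.0 CPM against 8.17 and 7.36 CPM. In C6/Tspear-rich nuclei it was at 18.9 and 24.7 CPM and was the subunit of the 14 that stayed past 2-fold, beside 0.539% of all genes. Of 24 glutamate receptor genes 2 were higher, the metabotropic Grm2 at 13.8 and 12.5 CPM against 5.91 and 4.67 CPM and Grm8 at 376 and 354 CPM against 86.3 and 89.9 CPM.

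Channels for burst firing were near the level of Adgrf5 relay neurons. Of 17 T-type, HCN and leak channel genes 1 was higher and 1 lower, beside 2.54% and 0.63% of all genes. Cacna1i, a T-type calcium channel, was higher at 15.3 and 16.2 CPM against 6.43 and 7.20 CPM, and Kcnk9, a leak potassium channel, was lower at 20.2 and 22.5 CPM against 46.6 and 45.8 CPM. Neither was past 2-fold in C6/Tspear-rich nuclei. Cacna1g, the main T-type channel of relay neurons, was at 187 and 199 CPM in those nuclei and 172 and 188 CPM in Adgrf5 relay neurons. Of 28 voltage-gated potassium channel genes, Kcnip1 and Kcnq5 were higher and Kcna1 lower over all the neurons, beside the same shares of all genes, and 0 of 27 was in C6/Tspear-rich nuclei, beside 0.539% and 0.469%.

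Axon guidance genes were higher than in Adgrf5 relay neurons in 7 of 36 and lower in 1, beside 2.54% and 0.63% of all genes. Against the other glutamatergic nuclei 0 of 38 were higher and 7 lower, Robo3 and Nrp2 among them, beside 0.505% and 2.81% of all genes. The genes higher than in Adgrf5 relay neurons were Unc5a, Robo3, Slit1, Slit2, Ephb1, Nrp2 and Sema3e, and the lower one was Sema5a. In C6/Tspear-rich nuclei the semaphorin Sema3e was the higher gene of 33 and Ntng2, a netrin-G, the lower one, beside 0.539% and 0.469% of all genes. Sema3e was at 56.9 and 61.5 CPM there against 25.1 and 27.1 CPM in Adgrf5 relay neurons. Slit2, a secreted repellent, was at 255 and 323 CPM in Tll1-alone, 17.2 and 34.4 CPM in C6/Tspear-rich nuclei and 48.2 and 34.9 CPM in Adgrf5 relay neurons. Of 23 thalamic transcription factors Lhx2, Lhx9, Ebf1 and Nr4a2 were higher over all the neurons and 0 lower, beside 2.54% and 0.63% of all genes. Against the other glutamatergic nuclei 0 of 27 were higher and 2 lower, Meis2 and Bcl11b, beside 0.505% and 2.81%. In C6/Tspear-rich nuclei 0 of 21 were higher and 1 lower, Nr2f2, beside 0.539% and 0.469%. The 4 higher genes were also past 2-fold higher in Tll1-alone than in C6/Tspear-rich nuclei. Lhx2 and Lhx9, LIM-homeodomain factors of the developing thalamus, were at 15.6 and 12.8 and 41.3 and 36.9 CPM in C6/Tspear-rich nuclei, below 2-fold over Adgrf5 relay neurons.

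The C6/Tspear-rich and Tll1-alone nuclei were also set beside each other. Of 9925 genes measured, 318 (3.2%) were higher past 2-fold in both libraries in Tll1-alone than in C6/Tspear-rich nuclei and 155 (1.56%) lower. Leading the higher genes beside Sema3d and Ror1 were Kcnh8, a potassium channel, at 259 and 289 CPM against 12.1 and 18.9 CPM, and Nr4a2, a nuclear receptor, at 33.2 and 42.0 CPM against 3.05 and 4.07 CPM. Klhl1, a neuronal kelch protein, was at 127 and 176 CPM against 10.5 and 19.3 CPM. Among the lowest besides Prkcd was Serinc2, a serine incorporator, at 1.43 and 0.573 CPM against 14.9 and 13.6 CPM.

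Between libraries the rule genes themselves moved little. C6 was lower in the injury library, with 3121 and 2809 UMIs and a log2 ratio of -0.32 (-0.39 to -0.24), Tll1 had a ratio of -0.13 (-0.19 to -0.07) and Tspear a ratio of 0.19 (0.10 to 0.28). Necab1 had 8843 and 9144 UMIs and a log2 ratio of -0.12 (-0.16 to -0.08), while in Adgrf5 relay neurons its ratio was 0.12 (0.05 to 0.20). None of the 4 genes reached 1.5-fold. Because C6, Tspear and Tll1 chose the nuclei, their ratios depend on the rule.

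Injury and sham were compared over 12791 genes with at least 100 UMIs in the neurons of both libraries together. Of these, 236 (1.85%) were higher past 1.5-fold in the injury library and 279 (2.18%) were lower, with a median log2 ratio of -0.001 over all of them. In the C6/Tspear-rich nuclei 179 (1.67%) of 10746 genes were higher and 271 (2.52%) lower, and in Adgrf5 relay neurons 159 (1.27%) of 12507 were higher and 367 (2.93%) lower.

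Immediate early genes, which neurons transcribe within minutes of activity, were lower in the injury library in 4 of 10 measured and higher in 0, beside 2.18% and 1.85% of all genes, with a list median of -0.22. Fos and Egr1, among the 4, reached the minimum of 100 UMIs mostly through the sham library, where they were high. In Adgrf5 relay neurons 1 of 9 was lower and 0 higher, beside 2.93% and 1.27% of all genes there, with a median of -0.25. In the other glutamatergic nuclei 4 of 15 were lower and 1 higher, beside 1.55% and 3.43%, with a median of -0.36. A list median below 0 was thus not particular to the neurons. Among the C6/Tspear-rich nuclei 0 of 7 measured members passed in either direction, beside 1.67% of all genes higher and 2.52% lower. The median there was 0.0294, with Fos and Egr1 under 100 UMIs and left out of it. Fos, a subunit of the AP-1 transcription factor, had 90 and 27 UMIs in the neurons, that is 5.35 and 1.43 CPM, a log2 ratio of -1.90 (-2.58 to -1.27). Its UMIs were spread over 61 and 27 nuclei, with at most 9 and 1 in a nucleus. The level was lower in the injury library in each division, with 5.09 and 1.02 CPM in C6/Tspear-rich, 5.50 and 2.63 CPM in intermediate and 5.73 and 1.34 CPM in Tll1-alone nuclei. In the other glutamatergic nuclei Fos was at 5.82 and 1.21 CPM, while in Adgrf5 relay neurons it had 44 and 31 UMIs and a log2 ratio of -0.61 (-1.33 to 0.08), which includes 0. The difference between the neurons and Adgrf5 relay neurons was not tested.

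Egr1, a zinc finger factor induced with Fos, had 77 and 33 UMIs and a log2 ratio of -1.39 (-2.02 to -0.78), and -0.39 (-0.91 to 0.12) in Adgrf5 relay neurons. Its ratio was -0.68 without nuclei with glial and vascular marker UMIs. Npas4, a factor induced by calcium entry, had 172 and 119 UMIs and a log2 ratio of -0.70 (-1.05 to -0.35), and here the Adgrf5 relay neurons had -1.08 (-1.51 to -0.66). Dusp1, a phosphatase that ends MAP kinase signalling, had 192 and 131 UMIs and a log2 ratio of -0.72 (-1.05 to -0.39), and -0.45 (-0.75 to -0.15) in Adgrf5 relay neurons. Among C6/Tspear-rich nuclei Fos had 45 and 10 UMIs and a log2 ratio of -2.32 (-3.48 to -1.31), and Egr1 41 and 19 UMIs and -1.26 (-2.13 to -0.45). Npas4 had 76 and 63 UMIs there with -0.42 (-0.93 to 0.08), and Dusp1 110 and 84 UMIs with -0.54 (-0.97 to -0.12), both short of 1.5-fold. The intervals of Npas4 and Dusp1 lay below 0 in the whole set and in Adgrf5 relay neurons, whereas the Fos and Egr1 intervals in Adgrf5 relay neurons include no difference. With the rule applied to nuclei thinned to 3000 UMIs, which left 202 and 170 neurons, the Fos ratio was -0.99, on few UMIs. In that setting the Npas4 ratio was 0.35, from 14 and 17 UMIs, and the Egr1 ratio -0.21, from 5 and 4.

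The other 6 measured members did not pass 1.5-fold. Jun had 71 and 80 UMIs and a log2 ratio of 0.01 (-0.47 to 0.49), Nr4a1, an orphan nuclear receptor, had -0.02 (-0.20 to 0.16), Per1, a clock gene, had -0.07 (-0.27 to 0.12) and Bdnf, a neurotrophin, had -0.14 (-0.35 to 0.06). Jund had -0.29 (-0.64 to 0.06) and Nr4a3 -0.15 (-0.49 to 0.19). Of the 9 members with fewer than 100 UMIs, Fosb had 14 sham and 0 injury UMIs, a log2 ratio that fell by at least 2.39 against a floor of 3 UMIs for the library. Egr4 had 6 and 0 UMIs and Btg2, an antiproliferative gene, had 64 and 35. Arc, a regulator of synaptic receptors, had 3 and 8 UMIs and Ier2 35 and 35, so these low counts did not all go one way.

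The promoters of Fos, Npas4 and Dusp1, 3 of the 4 genes past the threshold, are shown from the RefSeq promoter table. That of Egr1 is not reported here and its matches were not listed, so the 3 are not the whole set. The element TGACG, the core of the cAMP response element bound by CREB family factors, was chosen as a textbook feature of activity-induced genes. Each line gives the 250 bases before the annotated start, 5′ to 3′ in the direction of transcription, from build GRCm38.p6, with every TGACG on either strand in capitals (CGTCA is the same element on the other strand). Fos lies on the plus strand at chr12:85473640-85473889, Npas4 on the minus strand at chr19:4989972-4990221 and Dusp1 on the minus strand at chr17:26508473-26508722.
Fos: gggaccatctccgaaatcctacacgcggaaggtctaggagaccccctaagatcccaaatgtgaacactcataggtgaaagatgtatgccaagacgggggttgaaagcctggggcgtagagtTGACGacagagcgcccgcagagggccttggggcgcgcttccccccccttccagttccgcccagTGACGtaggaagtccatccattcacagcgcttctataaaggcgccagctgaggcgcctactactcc
Npas4: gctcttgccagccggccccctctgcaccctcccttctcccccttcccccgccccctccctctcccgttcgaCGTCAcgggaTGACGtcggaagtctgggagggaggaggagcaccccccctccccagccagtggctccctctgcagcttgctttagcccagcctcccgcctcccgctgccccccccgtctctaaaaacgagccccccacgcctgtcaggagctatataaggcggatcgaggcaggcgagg
Dusp1: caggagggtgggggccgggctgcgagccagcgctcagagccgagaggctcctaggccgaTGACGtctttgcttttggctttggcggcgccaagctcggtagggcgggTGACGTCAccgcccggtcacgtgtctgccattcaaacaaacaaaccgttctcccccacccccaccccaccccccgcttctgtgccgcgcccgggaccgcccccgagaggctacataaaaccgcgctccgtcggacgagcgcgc
Fos held 2 matches, beginning 129 and 66 bases before the start, Npas4 held 2, beginning 179 and 169 bases before it, and Dusp1 held 3, beginning 191, 143 and 140 bases before it. The matches at 143 and 140 in Dusp1 overlap and form the full palindrome TGACGTCA. Of all 32851 promoter windows of this length, 17.8% held TGACG on either strand and 1.55% held TGACGTCA. A match is a description of the letters and not evidence of binding.

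Ribosomal protein genes were lower as a list. Of 78 measured, 25 were lower past 1.5-fold and 0 higher, beside 2.18% and 1.85% of all genes, 76 had a ratio below 0, and the list median was -0.48 against -0.001 for all genes. Summed over the list the neurons held 22083 sham and 18064 injury UMIs. Rpl32, of the large subunit, had a log2 ratio of -1.02, Rps7 -0.94 and Rps21 -0.92, the last 2 of the small subunit, while Rpl4 had 0.20. In C6/Tspear-rich nuclei 35 of 77 were lower, beside 2.52% of all genes there, with a median of -0.54. In Adgrf5 relay neurons 37 of 78 were lower, beside 2.93% of all genes there, with a median of -0.58. The lower level was thus not particular to the neurons. Ribosomal protein genes have processed pseudogenes, so a read can be shared with a copy, and these values are uncertain to that extent.

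Translation factors were lower in 3 of 35 and higher in none, beside 2.18% and 1.85% of all genes, with a median of -0.04. Eif5a, which relieves stalled ribosomes, had 214 and 121 UMIs and a log2 ratio of -0.99 (-1.32 to -0.66), Eif3k had -0.75 (-1.12 to -0.38) and the helicase Eif4a2 had -0.61 (-0.79 to -0.43). Eif1 was just short of the threshold at -0.56 (-0.72 to -0.40). The list did not fall as a whole.

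Among the 10 genes with the largest fall were also genes of varied roles. Tmsb10, an actin-sequestering thymosin, had 337 and 168 UMIs and a log2 ratio of -1.17 (-1.45 to -0.90), with -1.14 (-1.44 to -0.85) in Adgrf5 relay neurons. Hist3h2ba, a histone gene, and Gm26879, annotated as antisense RNA, were also at lower levels in oligodendrocyte nuclei of the injury library, at 13.7 and 4.57 and 10.8 and 5.38 CPM. Those levels rest on few UMIs and are given without an interval. Counting by strand is not given in the sources used here, so reads of Gm26879 and of the gene opposite it cannot be told apart. Ankrd9, an ankyrin-repeat protein, had 88 and 32 UMIs and a log2 ratio of -1.63 (-2.26 to -1.03). With the rule applied to thinned nuclei Ankrd9 had -0.23, from 10 and 8 UMIs, and Tmsb10 -0.33, from 28 and 21, both under 1.5-fold.

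Trim40, a ubiquitin ligase, was lower in the neurons and near its sham level in Adgrf5 relay neurons. It had 80 and 32 UMIs in the neurons and a log2 ratio of -1.49 (-2.13 to -0.88), while in Adgrf5 relay neurons it had 113 and 112 UMIs and a log2 ratio of -0.12 (-0.51 to 0.27). Its level in the C6/Tspear-rich nuclei was 6.78 and 2.24 CPM and in Tll1-alone nuclei 0.614 and 0.764 CPM, with 5.50 and 1.58 CPM in intermediate nuclei. The Tll1-alone levels are 3 and 4 UMIs, too few to show a fall. Noc4l, a ribosome assembly factor, had -1.26 (-1.85 to -0.69) in the neurons and -0.20 (-0.80 to 0.40) in Adgrf5 relay neurons. Bex4 and Fxyd4 had ratios of -1.13 (-1.69 to -0.60) and -1.11 (-1.52 to -0.72). The intervals of Trim40 in both sets of neurons do not overlap, and the difference itself was not tested.

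The largest rises were mostly in genes high in oligodendrocyte nuclei. Of the 10 genes with the largest rise, 9 were far higher in oligodendrocyte nuclei than in the neurons. St18, a myelin transcription factor family member, had 118 and 562 UMIs in the neurons, a ratio of 2.09 (1.80 to 2.38), and 3915 and 3707 CPM in oligodendrocyte nuclei. Prr5l, an mTORC2-associated protein, had 79 and 422 UMIs and a log2 ratio of 2.25 (1.90 to 2.62), with 2266 and 2689.7 CPM in oligodendrocyte nuclei. Zeb2, a zinc finger factor required for myelination, had 118 and 459 UMIs, with a ratio of 1.79 (1.498 to 2.10) and 2123 and 2193 CPM there. Neat1, the paraspeckle RNA, had 71 and 275 UMIs, with a ratio of 1.79 (1.41 to 2.18) and 1157 and 1083 CPM there. A230001M10Rik, Cdh19, Dock5, Slc1a3 and Daam2 rose by between 1.74 and 2.40 on the same scale. Slc1a3 is also an astrocyte marker. Of its UMIs 53.8% and 37% lay in nuclei with 2 or more oligodendrocyte marker UMIs.

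Markers of oligodendrocytes moved with this set. Over 6 markers, none at 0, their summed level in the neurons was 62.3 and 124 CPM, against 12521 and 11930 CPM in oligodendrocyte nuclei and 57.3 and 81.9 CPM in Adgrf5 relay neurons. Oligodendrocyte nuclei themselves were 3.55% of the sham and 6.57% of the injury library. Neurons with 2 or more UMIs of these markers were 12.8% and 20.9% of the total, and they held 81.4% and 89.9% of the St18 UMIs, 51.9% and 84.6% of the Prr5l UMIs and 81.2% and 85.3% of the A230001M10Rik UMIs, against 15.8% and 25.8% of all UMIs. When nuclei with 2 or more UMIs of glial and vascular markers were left out, 558 of the 1296 sham and 444 of the 1307 injury neurons remained. Microglial markers counted in this cut, at 62.5 and 87.9 CPM in oligodendrocyte nuclei and more in the neurons, and deep nuclei reach it more easily. The setting thus left out more than nuclei with oligodendrocyte RNA. The genes higher in the injury library went from 236 to 144 of a smaller set of 9263, and the Prr5l ratio turned to -0.42, from 20 and 12 UMIs. The other genes kept a ratio above 0 on few UMIs: St18 had 1.68 (7 and 19 UMIs), Neat1 0.90 (15 and 23), Zeb2 0.65 (25 and 32), Daam2 1.09 (5 and 9), Dock5 0.93 (5 and 8) and Slc1a3 1 and 4 UMIs. A230001M10Rik had 0 and 6 UMIs, and Cdh19 had too few for a value. With the rule applied to thinned nuclei St18 had -1.47 (42 and 14 UMIs), Prr5l -0.30 (17 and 13), Zeb2 -0.19 (17 and 14), Neat1 -0.17 (12 and 10) and A230001M10Rik -0.57 (5 and 3). In that setting Daam2 had 0.93 (7 and 13 UMIs), Slc1a3 0.0784 (4 and 4), and Dock5 had 2 and 8 UMIs. When free RNA, taken as 23.9% and 26.7% of the UMIs, was subtracted, 9 of the 10 genes with the largest rise had no value left and Neat1 had 5.63. That fraction was not measured: it was the oligodendrocyte marker share in the neurons over that in the whole library. Oligodendrocyte RNA was therefore removed by construction, and the lost values say nothing on the source of the rises. Astrocyte markers also moved, at 4.58 and 13.8 CPM over 6 markers, and microglial markers were at 110.4 and 108.8 CPM over 5. The part of oligodendrocyte RNA in these rises was not tested.

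Ebf2, a transcription factor, was the one of the 10 that was not higher in oligodendrocyte nuclei than in the neurons. It had 19 and 86 UMIs, with a ratio of 2.01 (1.28 to 2.81), and 0.718 and 1.61 CPM in oligodendrocyte nuclei. Its UMIs lay in 5 and 27 nuclei, and 1 sham nucleus held 15 of the 19. Of its UMIs 78.9% and 40.7% lay in nuclei with 2 or more oligodendrocyte marker UMIs. The ratio was 4.49 with a rule sum of at least 5 (2 and 64 UMIs) and 4.22 without the deepest 10% of nuclei (1 and 27 UMIs). In Adgrf5 relay neurons its ratio was -0.34 (-0.94 to 0.25).

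**Figure D4:**
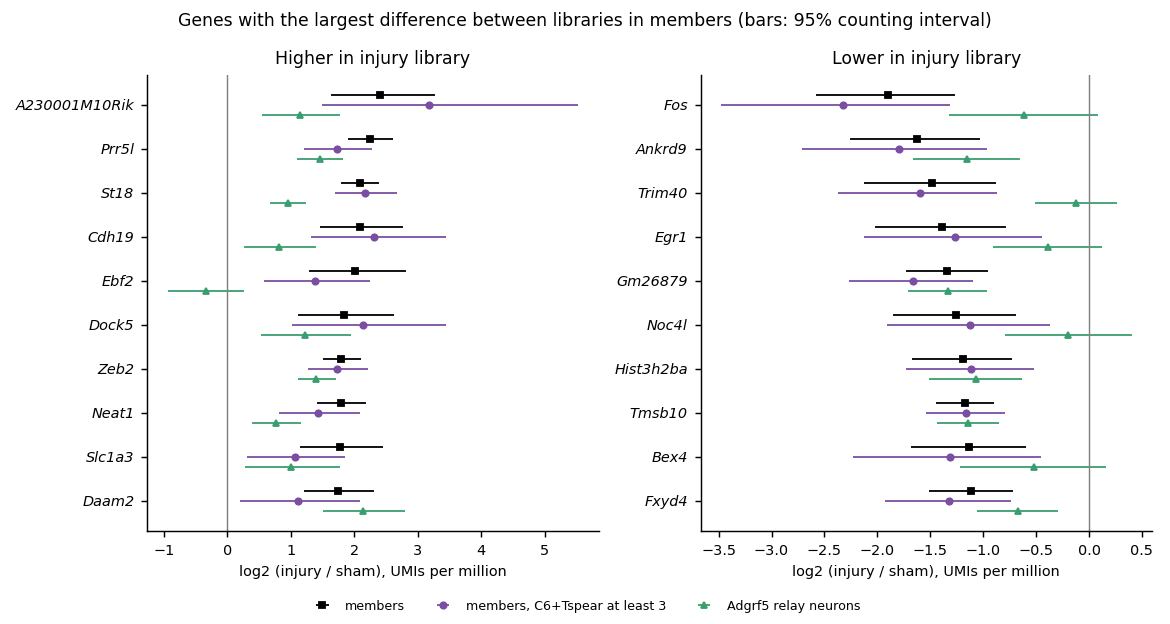
Log2 ratio of injury over sham for the 10 genes with the largest rise and the 10 with the largest fall in C6/Tspear/Tll1 neurons (squares), with the same ratio in the C6/Tspear-rich nuclei (circles) and in Adgrf5 relay neurons (triangles) and bars for the exact 95% counting interval. Trim40 is at -1.49 in the neurons and at -0.12 in Adgrf5 relay neurons, and Fos at -1.90 and -0.61.

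Some higher genes had most of their UMIs in nuclei that carry habenula markers. Axon guidance genes were higher past 1.5-fold in 5 of 37 and lower in 0, beside 1.85% and 2.18% of all genes, with a list median of 0.08. Robo3, a receptor that controls midline crossing, had 226 and 475 UMIs and a log2 ratio of 0.90 (0.67 to 1.14), and 87.6% and 93.7% of its UMIs lay in neurons with 3 or more habenula marker UMIs. Those neurons were 11.6% of the sham and 17.5% of the injury neurons and held 11.3% and 17.97% of all UMIs. Nrp2, a semaphorin receptor, had 702 and 1235 UMIs, with a ratio of 0.65 (0.51 to 0.78) and 64.7% and 75.0% of its UMIs in them. Without those nuclei the log2 ratio of Robo3 was 0.04, that of Nrp2 0.26 and that of Chrna3, a nicotinic receptor subunit, -0.28, and the genes higher in the injury library numbered 154 of 12217. The Robo3 and Chrna3 values rest on few UMIs. Those nuclei held 198 of the 226 sham and 445 of the 475 injury UMIs of Robo3. For Chrna3 they held 45 of 58 and 98 of 109. Other settings moved Robo3 and Nrp2 both ways. Their ratios were 1.27 and 1.05 in C6/Tspear-rich nuclei, 1.26 and 0.92 after free RNA was subtracted and 0.51 and 0.39 with a rule sum of at least 2.

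Ephb1 and Ebf1 stayed past 1.5-fold without the habenula-marker nuclei. Ephb1, an ephrin receptor, had 694 and 1367 UMIs and a log2 ratio of 0.81 (0.68 to 0.95) in the neurons, and 1.02 without the habenula-marker nuclei. In the C6/Tspear-rich nuclei its ratio was 1.65 (1.31 to 2.005) and in Adgrf5 relay neurons 0.33 (0.12 to 0.54). It is also an oligodendrocyte gene here, at 614 and 684 CPM in oligodendrocyte nuclei, and its ratio was 0.25 when nuclei with 2 or more glial and vascular marker UMIs were left out. With the rule applied to thinned nuclei Ephb1 had 0.18, from 149 and 160 UMIs, and Nrp2 0.0257, from 111 and 107. Ebf1, a helix-loop-helix factor, had 1093 and 1862 UMIs, with a ratio of 0.60 (0.49 to 0.71), and 1.25 (0.997 to 1.51) in C6/Tspear-rich nuclei, against -0.02 (-0.19 to 0.15) in Adgrf5 relay neurons. Without the habenula-marker nuclei the Ebf1 ratio was 0.88, without nuclei with glial and vascular marker UMIs it was 0.32, and with the rule applied to thinned nuclei -0.16. Oligodendrocyte nuclei had 16.5 and 36.0 CPM of Ebf1. Its level in C6/Tspear-rich nuclei, 20.01 and 47.6 CPM, remained below that in Tll1-alone nuclei, 152 and 216 CPM. Ntng2, the netrin-G, had 0.64 (0.29 to 1.002), with 79.0% and 74.5% of its UMIs in the habenula-marker nuclei. Without them its ratio was 1.02, without the glial-marker nuclei 0.14, and with the rule applied to thinned nuclei -0.95. Sema3c, a semaphorin, had 0.59 (0.26 to 0.93), with 17.4% and 27.8% of its UMIs in the habenula-marker nuclei.

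In other lists single genes passed 1.5-fold: of 24 thalamic transcription factors 2 were higher and 1 lower, of 15 thalamic nucleus markers 1 was lower, and of 29 vesicle release genes 1 was higher and 1 lower. Higher were also 1 of 29 voltage-gated potassium channels, 2 of 19 neuromodulator receptors and 1 of 19 cadherins. Of all genes 1.85% were higher and 2.18% lower, and these counts of 1 or 2 genes a list are given as values only. Bcl11b, a zinc finger factor, was at 2.85 and 6.36 CPM with a ratio of 1.16 (0.66 to 1.67), and 1.08 (0.53 to 1.65) in Adgrf5 relay neurons. Nr2f1, a nuclear receptor that patterns the thalamus and cortex, was lower with 1059 and 775 UMIs and a log2 ratio of -0.62 (-0.75 to -0.48). Cck, the cholecystokinin peptide, had 431 and 286 UMIs and a log2 ratio of -0.76 (-0.98 to -0.54), and -0.54 (-0.74 to -0.33) in Adgrf5 relay neurons. Syt4 and Syt2, synaptotagmins that act in vesicle release, went opposite ways, at -0.64 (-0.81 to -0.47) and 0.69 (0.35 to 1.04). Kcnh1, a potassium channel, had 0.61 (0.29 to 0.94), Adra1a, an adrenergic receptor, 0.65 (0.23 to 1.08) and Cdh9, a cadherin, 0.79 (0.54 to 1.04). Kcnh1 had -0.0857 without the glial-marker nuclei, -5.56 after free RNA was subtracted, 0.17 without the deepest 10%, 1.19 with the rule applied to thinned nuclei and 1.24 in C6/Tspear-rich nuclei. Adra1a had 0.00882 without the habenula-marker nuclei, -0.28 with the thinned rule, 1.31 without the deepest 10%, 1.23 in C6/Tspear-rich nuclei and 2.27 after free RNA was subtracted. Bcl11b had -0.20 with the thinned rule and 2.48 after free RNA was subtracted, and Cck -0.42 with the thinned rule. Cdh9 had 0.53 with a rule sum of at least 2, 0.25 with the rule applied to thinned nuclei, 0.33 in C6/Tspear-rich nuclei and 2.01 after free RNA was subtracted. The lists that hold these genes had medians between -0.10 and 0.10.

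Genes of axon injury were not raised as a list. Of 14 measured, 1 was lower past 1.5-fold and 0 higher, beside 2.18% and 1.85% of all genes, with a median of -0.10. The lower gene was Atf4, a factor of the integrated stress response, with 181 and 116 UMIs and a log2 ratio of -0.81 (-1.16 to -0.46). Atf3, the usual sign of an injured axon, had 3 and 4 UMIs, too few to compare. Gap43, a growth cone protein, had -0.14 (-0.20 to -0.07) and Sox11, a regeneration-associated factor, -0.39 (-0.57 to -0.22). Capn11, a calpain, had 17 and 79 UMIs, 4 short of the minimum, and a log2 ratio of 2.05 (1.28 to 2.90). It was also higher in the injury library in Adgrf5 relay neurons, at 0.406 and 5.27 CPM, and in oligodendrocyte nuclei, at 0.718 and 4.03 CPM.

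Of 19 postsynaptic scaffold genes none passed 1.5-fold, beside 1.85% of all genes higher and 2.18% lower. A ratio above 0 was found in 16 of them, against 49.7% of all genes, with a median of 0.09. The same list had 19 of 20 above 0 with a median of 0.11 in Adgrf5 relay neurons, and 17 of 20 with 0.11 in the other glutamatergic nuclei. Dlgap2 had 0.35, Shank2 0.31 and Camk2a, the alpha subunit of calcium/calmodulin kinase II, 0.17. Glutamate receptors had none of 24 past the threshold with a median of 0.06, GABA receptors none of 14 with -0.02, and T-type, HCN and leak channels none of 17 with 0.08. Of 13 measured genes of the complement, tolloid, LGI/EAR and NECAB families and their substrates, 0 were higher and 0 lower, with a median of 0.07. Chrd, the chordin gene, had 0.29 (-0.13 to 0.70). Cd55, which protects cells from complement, was the lowest of them with -0.55 (-1.02 to -0.08), and Cd46, another complement regulator, had 0.05 (-0.05 to 0.14). C8a, C8b and C9, which join C6 in the membrane attack complex, each had at most 1 UMI per library, while C7 had 19 and 26 and C8g 15 and 9 UMIs.

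**Figure D5:**
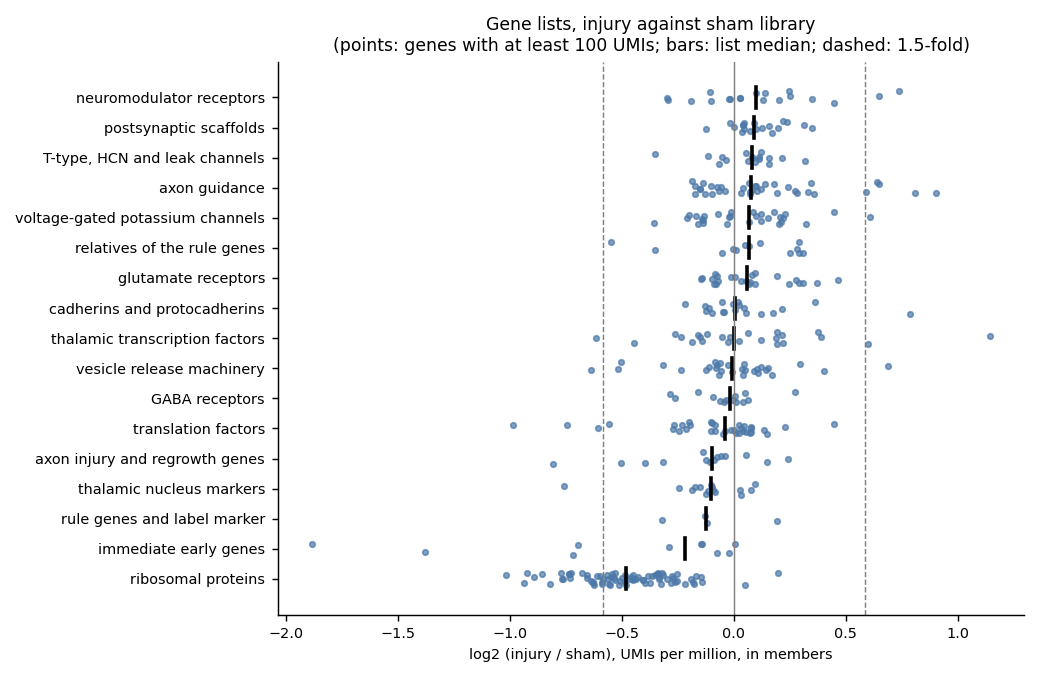
Log2 ratio of injury over sham in C6/Tspear/Tll1 neurons (horizontal axis) for genes with at least 100 UMIs in 17 lists, each point a gene, black bars the list median and dashed lines 1.5-fold. Of the 78 ribosomal protein genes 76 lie left of 0, with a median of -0.48, and the other lists have medians between -0.22 and 0.10.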

How the data were processed

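Nuclei from 2 single-nucleus RNA-seq libraries, sham and injury, were compared. The authors sorted nuclei, made 10x Genomics 3′ v3.1 libraries and deposited raw UMI counts per gene and barcode; the submitters' processing notes name Cell Ranger 6.0.2, Seurat 4.0 and builds GRCm38 and mm10. The annotation release, the counting of introns and of strand are not given in the sources used here. Symbols were matched for 32158 of 32285 rows. Kept nuclei had 200 to 7500 genes and at most 2% mitochondrial UMIs, which left 16373 of 16390 sham and 21777 of 21828 injury barcodes, with 137850696 and 180106314 UMIs deposited. No doublet caller was run and doublets were not removed. UMIs were summed per population and library and divided by its total. Log2 ratios carry exact conditional binomial intervals, levels exact Poisson intervals and shares Clopper-Pearson intervals. A gene was counted as measured with at least 100 UMIs over both libraries and as changed past 1.5-fold, with a prior of 0.5 UMI. Between populations it had to pass 2-fold in both libraries. With 1 library per group no test, SE or p-value was computed. Oligodendrocyte nuclei were kept nuclei with at least 5 UMIs of oligodendrocyte genes and no UMI of the glutamate transporters, Gad1 or Gad2. Genes were named when they were rule or label genes, members of a described list, among the 10 with the largest rise or fall between libraries whose interval excluded 0, or among the 10 highest or lowest over Adgrf5 relay neurons by the smaller of the within-library ratios, rule genes left out. Other genes, such as those leading the Tll1-alone comparison, and the division by C6 and Tspear UMIs were chosen after their values were seen. The members and lists were chosen with earlier results of these data known. Scripts were tested on simulated data. Other thresholds, scalings (edgeR TMM factors, median of ratios), a free-RNA correction and exclusions of nuclei were tried as alternatives.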

Additional observations from a re-analysis of the deposited data

Results flagged for a closer look

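Necab1 and Syt2 moved in opposite directions in the C6/Tspear/Tll1 neurons and the Adgrf5 relay neurons, with intervals on opposite sides of 0. The log2 ratio of injury over sham for Necab1 was -0.12 in the C6/Tspear/Tll1 neurons and 0.12 (0.05 to 0.20) in the Adgrf5 relay neurons. For Syt2 it was 0.69 in the C6/Tspear/Tll1 neurons and -0.34 (-0.62 to -0.07) in the Adgrf5 relay neurons. Of the Syt2 UMIs in the former, 38.1% and 35.1% lay in the habenula-marker nuclei, which held 11.3% and 17.97% of all UMIs. In the C6/Tspear-rich nuclei the Syt2 ratio was 1.90. Its level there was lower past 2-fold than in Adgrf5 relay neurons in both libraries. With 1 library per group the difference was not tested for either gene.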

How the results depend on the processing

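No paired analysis was possible because the groups hold 1 library apiece. The share of neurons among glutamatergic nuclei, 14.9% for sham and 13.7% for injury, was 20.4% and 18.8% with a sum of at least 2, 9.001% and 8.27% with at least 5, 12.9% and 11.4% without nuclei with glial and vascular marker UMIs, 12.8% and 11.1% without the deepest 10%, and 4.15% and 3.15% with the rule applied to thinned nuclei. Among alternatives chosen after seeing the data it was 7.23% and 6.75% for the C6/Tspear-rich nuclei and 13.2% and 11.3% for neurons with fewer than 3 habenula marker UMIs. Genes higher in the injury library numbered 144 without the glial-marker nuclei, 76 after thinning, 154 without the habenula-marker nuclei, 973 with a minimum of 20 UMIs, 3979 with none and 53 past 2-fold. Genes lower numbered 108 after thinning, 726 with 20 UMIs, 3096 with none and 15 past 2-fold. Of the calls, 45.8% were higher as reported, 36.5% without the glial-marker nuclei, 35.9% without the habenula-marker nuclei and 32.0% after free RNA was subtracted (180 higher and 382 lower), and 57.3% with a minimum of 20 UMIs, 56.2% with none and 77.9% past 2-fold. Beyond reversals, thinning took Egr1, Ankrd9, Tmsb10, Cck, Slc1a3, Ephb1, Nrp2, Cdh9, Chrna3 and Sema3c under 1.5-fold. Against Adgrf5 relay neurons 150 genes were higher and 38 lower after thinning, and 62 were higher in the C6/Tspear-rich nuclei. After thinning the list median was -0.17 for nucleus markers, 0.10 for GABA receptors and -0.11 for translation factors, which also had -0.11 with a sum of at least 5. The ribosomal median was -0.55 after free RNA was subtracted, where 9 named genes had no value left. The immediate early median was 0.0294 in the C6/Tspear-rich nuclei, where Fos and Egr1 fell below 100 UMIs and left the list. After thinning, to 202 and 170 nuclei, ratios turned to -0.57 for A230001M10Rik, -0.30 for Prr5l, -1.47 for St18, -0.19 for Zeb2, -0.17 for Neat1, -0.16 for Ebf1, -0.20 for Bcl11b, -0.28 for Adra1a, 0.35 for Npas4, -0.95 for Ntng2 and -0.0247 for Robo3. They turned to -0.42 for Prr5l and -0.0857 for Kcnh1 without the glial-marker nuclei, to -5.56 for Kcnh1 after free RNA was subtracted, and to -0.28 for Chrna3, on few UMIs, without the habenula-marker nuclei. The causes were not tested. Of 664 values of named genes 558 stayed within their counting interval.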

Other observations

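Summed over 5 markers of cortical neurons the C6/Tspear/Tll1 neurons held 173 and 190.0 CPM, and over 4 markers of dentate neurons 242 and 210.3 CPM. The cortical sum was 195 and 231 CPM in Adgrf5 relay neurons. The dentate sum was 219 and 209 CPM there and 234 and 225 CPM in oligodendrocyte nuclei. In intermediate sham nuclei 4 of the 5 cortical markers were at 0, all but Cux2. Neither sum marks a cortical or dentate identity. Markers of intralaminar or midline neurons, 3 in number, reached 116 and 106 CPM. GABAergic markers were at 2.02 and 2.44 CPM over 6 genes, of which Gad1 and Gad2 were at 0 by the rule. Calb1, a calcium-binding protein of matrix-type relay neurons, was at 99.7 and 88.4 CPM in the neurons and 68.6 and 69.1 CPM in Adgrf5 relay neurons. Calb2, its relative calretinin, was at 16.2 and 17.1 CPM against 3.48 and 4.24 CPM.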
